A study of Mus musculus with 20 samples.

Results

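Genes of glycolysis, glycogen turnover and the pentose phosphate pathway were examined in the left ventricle of mice after myocardial infarction (MI). The set was a list of 36 gene symbols covering glucose uptake, the glycolytic enzymes, lactate handling, the pentose phosphate pathway and glycogen. A gene was measured if 1 of its probes had a detection p-value under 0.01 on 5 or more of the 20 arrays, and the probe with the highest mean stood for the gene. By that rule 26 of the 36 genes were measured, among 12921 genes and unnamed probes tested in all. Hk2, Gpi1, Eno1, Pfkfb1 and G6pdx had no probe in the annotation used here. Aldoc, Slc16a1, Pfkfb3 and Pgd had probes that were detected on 0 arrays, and Slc16a3 was detected on 1 array, female sham 4.

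The study hybridised left ventricular RNA from C57BL/6J mice aged 12 to 15 weeks to Illumina BeadChips. The groups were male MI, male sham, female MI and female sham, with 5 mice each. MI was produced by tying off a coronary artery, sham mice had the operation without an infarct being made, and all tissue was collected on day 3. The infarct itself was left out of the tissue, so the values describe the rest of the ventricle. All mice were of the same strain, had surgery and carried no stated transgene or drug. The 20 arrays are treated as 20 mice, as the design text gives 5 mice per group.

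Glycolysis splits glucose into pyruvate, which a well-perfused heart burns and a poorly perfused one turns to lactate. Many of its steps are run by several isoforms from separate genes: striated muscle uses its own forms of the glucose transporter, phosphofructokinase, phosphoglycerate mutase, enolase and glycogen phosphorylase, while other cells, among them fibroblasts and white blood cells, use different ones. The pentose phosphate pathway branches off glycolysis to make NADPH and ribose, and glycogen is the glucose store of the muscle cell.

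The arrays were of similar brightness, with median raw intensities from 31.4 to 39.2 and 15670 to 18388 of 45281 probes detected. Macrophage markers stood higher after MI: 7 of 10 measured rose in males (70%, against 9.77% of all tested genes) and 9 of 10 in females (90%, against 16.5%). Their summed linear level was 7875 to 11020 on male MI arrays and 4260 to 5630 on male sham arrays, and 7555 to 15980 on female MI arrays and 3936 to 6141 on female sham arrays; Itgam was not detected. Of 6 neutrophil markers 5 rose in each sex (83.3%), and of 6 fibroblast markers 4 rose in males (66.7%) and 3 in females (50%), against the same shares of all tested genes. Cxcr2, 1 of those 5 neutrophil markers in each sex, was detected on 3 male MI, 4 female MI and 0 sham arrays. It passed the detection filter through MI arrays alone, so its limma p-values give no support. Against the lowest detected signal it was at least 1.21-fold higher in females, and no such bound could be given in males. Mmp8 and Postn were not detected. Neutrophil sums overlapped between MI and sham arrays in both sexes, and fibroblast sums overlapped in females. Cardiomyocyte markers identified the tissue and overlapped between groups, with sums of 96750 to 99930 on male MI arrays and 97320 to 104200 on male sham arrays, and 86490 to 102500 on female MI arrays and 92210 to 105300 on female sham arrays. Of 11 cardiomyocyte markers 1 fell in males (Ckm, muscle creatine kinase) and 2 in females (Ckm and Tnni3, cardiac troponin I). These shares, 9.09% and 18.2%, were near the 8.59% and 16.3% of all tested genes that fell. The linear sums weigh the brightest probes most. Myl2, Myl3 and Actn2 had mean log2 levels of 13.85, 13.74 and 13.69 in female sham hearts, near the highest value on the scale, 13.99. An overlap of the cardiomyocyte sums therefore does not show that the amount of cardiomyocyte RNA was unchanged. The arrays in position F of their chips, male sham 3, female sham 2 and female MI 4, stood apart for several genes below. With group means removed, their mean exceeded that of the other arrays by 0.34 for Gapdh and 0.46 for Pgam1 on the log2 scale.

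In males 3 of the 26 measured genes rose after MI (11.5%) and 4 fell (15.4%), while 9.77% of all tested genes rose and 8.59% fell. In females 7 rose (26.9%) and 9 fell (34.6%), against 16.5% and 16.3% of all tested genes. The calls are from limma with a Benjamini-Hochberg adjusted p under 0.05 over all 12921 features. The median log2 difference of the 26 genes, MI minus sham, was -0.09 in males and -0.07 in females, and that of all tested genes was -0.04 and -0.05. Values below are background-corrected, quantile-normalised log2 intensities, given array by array in the order of the replicate numbers. In bulk tissue, fewer cells of a type and less RNA per cell cannot be told apart.

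**Figure D1:**
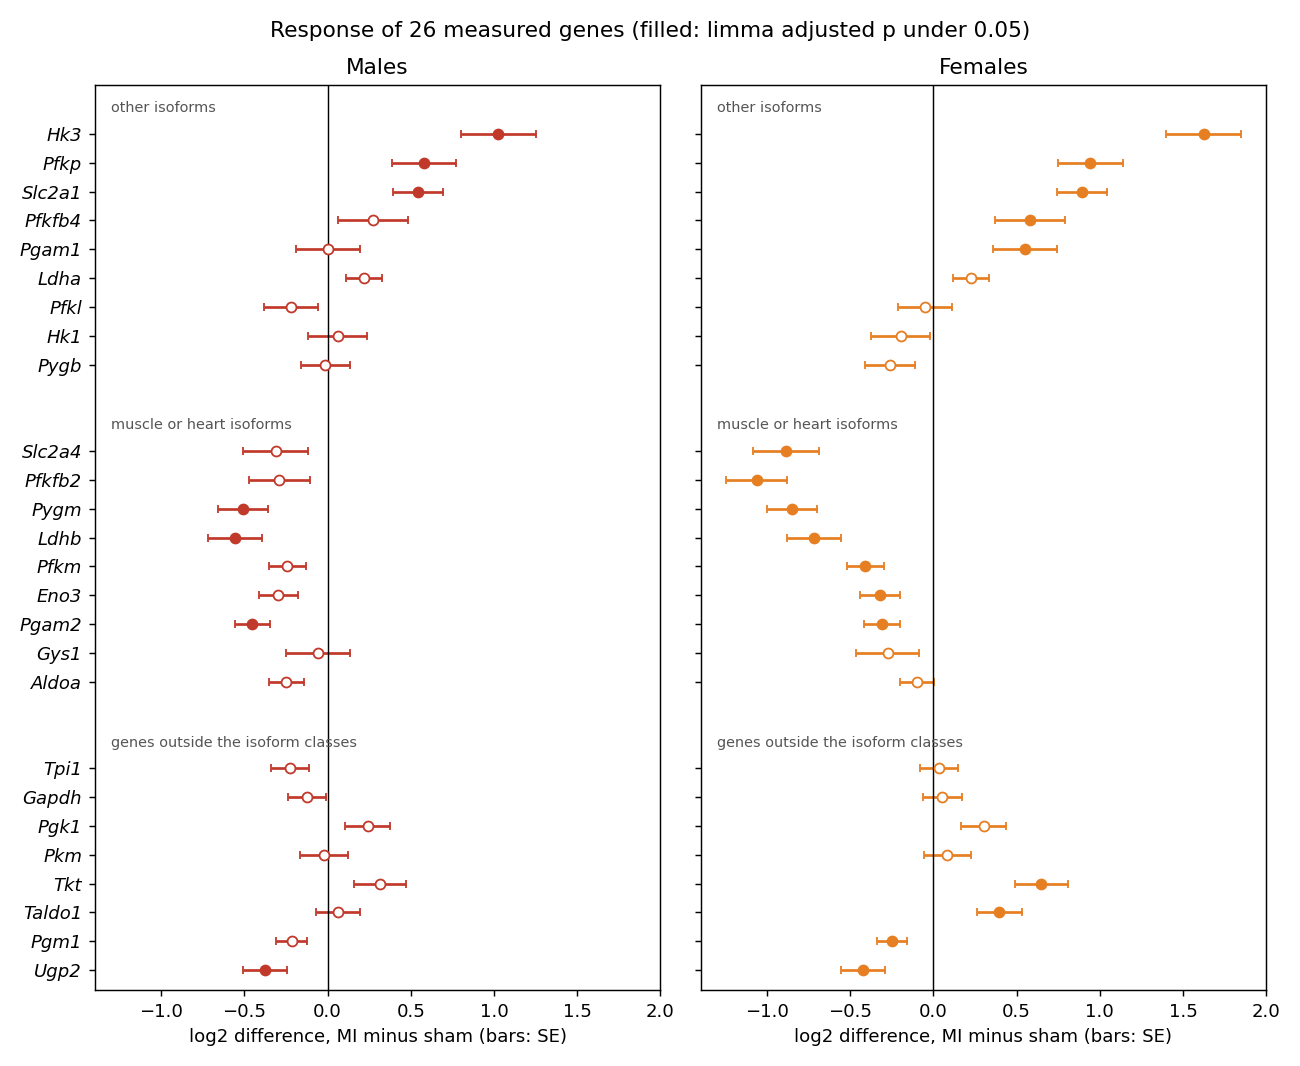
Log2 difference in intensity, MI minus sham, with its standard error for each of the 26 measured genes in males (left) and females (right); filled points passed an adjusted p under 0.05 in limma. All filled points among the other isoforms lie to the right of 0, and all filled points among the muscle or heart isoforms lie to the left.

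In females the glucose transporters moved in opposite directions after MI. Slc2a1 encodes GLUT1, the transporter of basal glucose uptake in most cells. Its level was 9.39, 9.65, 9.15, 9.51 and 9.66 in female MI hearts and 8.39, 8.52, 8.29, 9.0 and 8.70 in female sham hearts. In males it was 9.04, 9.26, 9.38, 9.05 and 9.16 after MI and 8.81, 8.52, 8.28, 9.08 and 8.48 after sham surgery. Every female MI array lay above every female sham array, while in males 1 sham array, number 4, reached into the MI range. The difference was 0.89 ± 0.15 in females (SE, fold 1.86, adjusted p = 1.5e-04) and 0.54 ± 0.15 in males (fold 1.46, adjusted p = 0.0165), and the male call ended without male sham 3 (adjusted p = 0.0511).

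Slc2a4 encodes GLUT4, the insulin-responsive transporter of heart and skeletal muscle. Its level was 9.50, 9.23, 9.89, 9.23 and 9.01 in female MI hearts and 10.09, 10.56, 10.80, 9.75 and 10.11 in female sham hearts. The groups overlapped at female MI 3 and female sham 4 only, and the level fell by 0.89 ± 0.20 (SE, adjusted p = 0.0017). In males the levels were 10.06, 10.13, 9.22, 10.01 and 9.85 after MI and 9.93, 10.07, 10.24, 10.30 and 10.30 after sham surgery. Male MI 3 stood well below the rest, and the male difference of -0.31 ± 0.20 did not pass (adjusted p = 0.283, or 0.0452 under scaling by the 75th percentile). Fat cells also use GLUT4, and the 1 measured adipocyte marker, Adipoq, the hormone adiponectin, fell by 1.02 ± 0.35 in females (SE, adjusted p = 0.0314) with a difference of -0.42 ± 0.35 in males (adjusted p = 0.439). Its linear level was 26.5 to 139.8 on female MI arrays and 73.3 to 192 on female sham arrays, while the markers Fabp4, Plin1 and Lep were not detected. The part of fat cells in the Slc2a4 result was not tested.

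Hexokinases trap glucose in the cell by phosphorylating it. Hk3, the form of white blood cells, had the largest increase among the 26 genes in both sexes. In females it measured 7.01, 6.97, 5.88, 7.29 and 6.53 after MI and 4.85, 5.89, 4.85, 5.17 and 4.81 after sham surgery. In males it measured 6.09, 6.06, 6.46, 6.36 and 6.65 after MI and 5.41, 5.06, 5.25, 5.28 and 5.49 after sham surgery. Male arrays did not overlap, and in females female sham 2, a position F array, touched female MI 3. Hk3 rose by 1.62 ± 0.22 in females (SE, adjusted p = 1.84e-05) and 1.03 ± 0.22 in males (adjusted p = 0.00332). The probe was detected on 3 of 5 female sham arrays and on all arrays of the other groups, so the size of the female difference rests partly on undetected signals. It also depends on the offset added before taking log2: with 50 in place of 16 the differences were 1.04 in females and 0.64 in males (adjusted p = 4.9e-05 and 0.00691). Without the position F arrays they were 1.68 and 1.01. These values stand beside macrophage marker sums that moved the same way, and the part of those cells in the Hk3 result was not tested. Hk1, the form found in most tissues, ranged from 6.93 to 8.37 over all arrays and passed in neither sex, with differences of 0.06 in males and -0.20 in females. A second, dimmer probe of Hk1 was at 0.41 in males and -0.41 in females and passed in neither sex.

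Phosphofructokinase commits sugar to glycolysis and exists as muscle (Pfkm), liver (Pfkl) and platelet (Pfkp) forms. Pfkp was 9.44, 9.39, 8.77, 9.63 and 8.87 in female MI hearts and 8.03, 8.49, 8.27, 8.11 and 8.49 in female sham hearts. Male hearts had 9.07, 9.32, 8.64, 8.66 and 8.71 after MI and 7.75, 8.39, 8.71, 8.10 and 8.56 after sham surgery. The female groups were separate and the male groups met at male sham 3, again in position F. Pfkp rose by 0.94 ± 0.19 in females (SE, fold 1.92, adjusted p = 8.48e-04) and by 0.58 ± 0.19 in males (fold 1.49, adjusted p = 0.0413). Its second probe moved likewise, by 0.71 and 0.66. The male call ended without male sham 1, 2 or 4 or male MI 1, 2 or 5 (adjusted p from 0.0513 to 0.127). It also ended with chip as a block (adjusted p = 0.0554), with the replicate number as a block (0.0563), under scaling by the 75th percentile (0.0546), with no filter on dim probes (0.101) and within chip 1 alone (0.0871). Without the position F arrays the male difference was 0.68 (adjusted p = 0.0137).

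Pfkm was 12.40, 12.46, 12.86, 12.23 and 12.17 in female MI hearts and 12.88, 12.84, 12.86, 12.72 and 12.87 in female sham hearts. Female MI 3 alone lay within the sham range. Pfkm fell by 0.41 ± 0.11 in females (SE, adjusted p = 0.00764), and its other probes had differences of -0.56 and -0.55 there. In males its difference was -0.24 ± 0.11 (adjusted p = 0.137, or 0.00786 under scaling by the 75th percentile). The other Pfkm probes were at -0.30 and 0.03 in males, and neither passed. Pfkl differed by -0.05 in females and -0.22 in males, neither of which passed.

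The bifunctional enzymes of the PFKFB family make and remove the activator of phosphofructokinase. Pfkfb2, the heart form, was 8.48, 8.53, 9.11, 7.84 and 8.65 in female MI hearts and 9.38, 9.59, 9.47, 9.99 and 9.50 in female sham hearts. All 5 female MI arrays lay below all 5 female sham arrays. The level was 47.9% of that of sham females, a difference of -1.06 ± 0.18 (SE, adjusted p = 1.75e-04), the largest decrease among the 26 genes. A second, dimmer probe of Pfkfb2 was at -0.57 in females (limma adjusted p = 0.0103 over all kept probes) and -0.40 in males (0.0986). In males Pfkfb2 was 8.80 to 9.11 after MI and 8.98 to 9.76 after sham surgery, a difference of -0.29 ± 0.18 (adjusted p = 0.284). Pfkfb4, an isoform best known from testis and tumour cells, rose in females by 0.58 ± 0.21 (adjusted p = 0.0377) with 6.71 to 7.69 on MI arrays and 6.01 to 7.18 on sham arrays. That call ended without any 1 of female MI 1, 2, 4 and 5 and female sham 1, 3 and 5 (adjusted p up to 0.116), with the replicate number as a block (adjusted p = 0.0545), with only the female groups in the fit (0.0729) and with no filter on dim probes (0.0952). The male difference of 0.27 ± 0.21 did not pass.

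**Figure D2:**
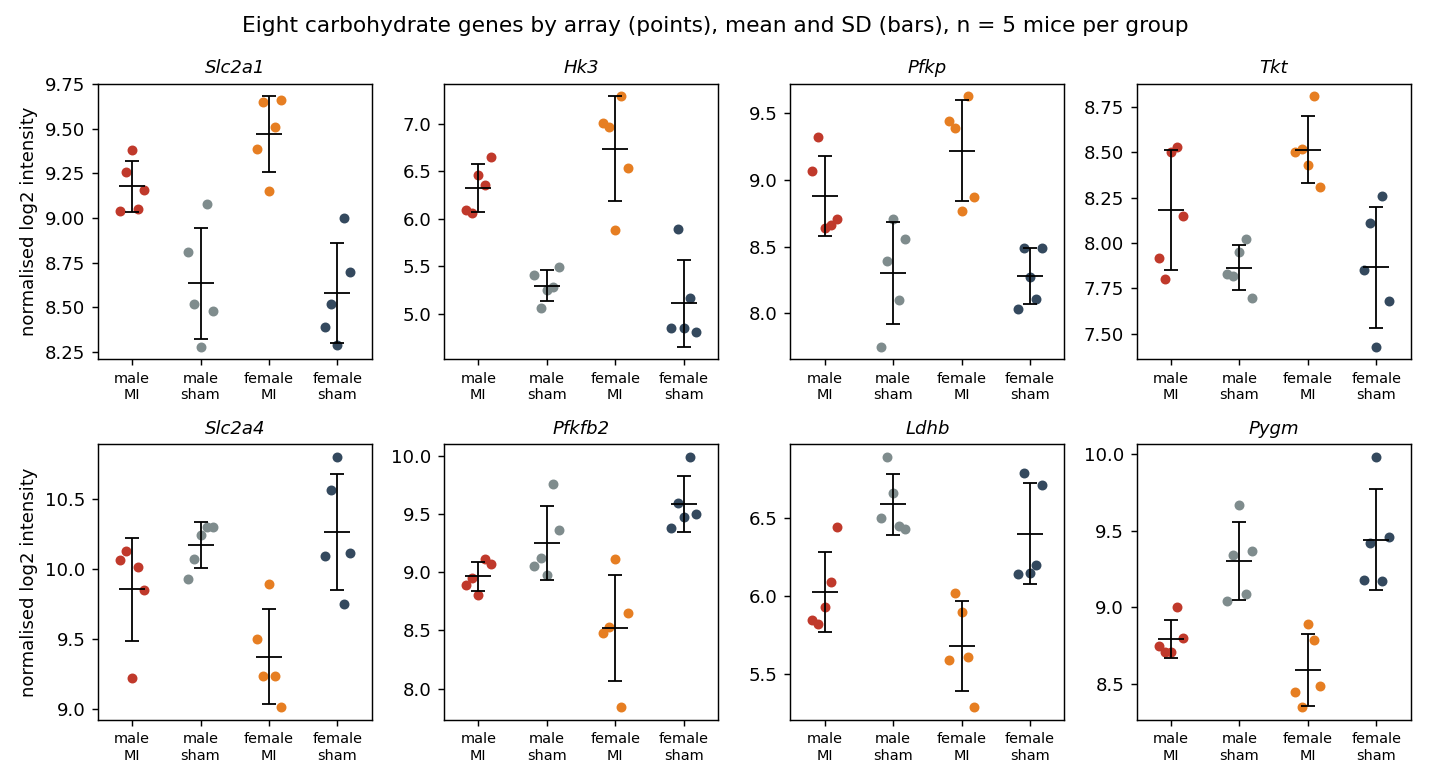
Normalised log2 intensity on each array (points) with group mean and SD (bars, n = 5) for 8 genes in male MI, male sham, female MI and female sham hearts. Slc2a1, Hk3, Pfkp and Tkt (upper row) lie higher on female MI than on female sham arrays on average, and Slc2a4, Pfkfb2, Ldhb and Pygm (lower row) lie lower; vertical scales differ between panels and none starts at 0.

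From aldolase to pyruvate kinase, 1 of 8 measured genes fell in males (12.5%, against 8.59% of all tested genes) and 0 rose, while in females 1 rose (12.5%, against 16.5%) and 2 fell (25%, against 16.3%). These shares of 8 genes are near those of all genes. No gene of this stretch had an unadjusted p under 0.05 with a higher level in males. Pgam2, the muscle phosphoglycerate mutase, was 12.01, 11.89, 12.13, 12.20 and 12.12 in male MI hearts and 12.46, 12.57, 12.83, 12.30 and 12.43 in male sham hearts. The male groups did not overlap, and Pgam2 fell by 0.45 ± 0.11 (SE, adjusted p = 0.00535, or by 0.69 under scaling by the 75th percentile). In females it was 11.94, 11.81, 12.18, 12.14 and 11.98 after MI and 12.28, 12.42, 12.17, 12.31 and 12.41 after sham surgery. Female MI 3 and female sham 3 were level, and the fall was 0.31 ± 0.11 (adjusted p = 0.0297). The female call ended without female MI 1, 2 or 5 or female sham 2 or 5 (adjusted p from 0.0517 to 0.0895). It also ended with chip as a block (adjusted p = 0.121), with only the female groups in the fit (0.0621) and under scaling by the 75th percentile (0.0571).

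Pgam1, the mutase of most other tissues, was 7.93, 8.26, 7.77, 8.53 and 7.84 in female MI hearts and 7.28, 7.73, 7.97, 7.30 and 7.30 in female sham hearts. Female sham 3 lay among the MI values and the other sham arrays below them. Pgam1 rose by 0.55 ± 0.19 in females (SE, adjusted p = 0.0319), a call that ended without female sham 1, 4 or 5 or female MI 2 or 4 (adjusted p from 0.0708 to 0.101). With chip as a block the difference was 0.51 (adjusted p = 0.119), and with no filter on dim probes the adjusted p was 0.0798. In males the difference was 0.00 ± 0.19. A second, dimmer probe of Pgam1 was at 0.50 in females (limma adjusted p = 0.0662 over all kept probes) and 0.12 in males. Eno3, the muscle enolase, fell in females by 0.32 ± 0.12 (adjusted p = 0.0418), with 12.51 to 12.94 on MI arrays and 12.65 to 13.19 on sham arrays. Leaving out any 1 of 9 arrays ended that call (male MI 1 and 4, female MI 2, 4 and 5, female sham 1, 2, 3 and 5, adjusted p from 0.0501 to 0.104). It also ended with chip as a block (adjusted p = 0.14), with only the female groups in the fit (0.106), without the position F arrays (0.103) and with no filter on dim probes (0.06). In males Eno3 differed by -0.30 ± 0.12 (adjusted p = 0.0874, or 0.0423 without male sham 4 and 0.00575 under scaling by the 75th percentile).

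The remaining enzymes of the stretch, Aldoa, Tpi1, Gapdh, Pgk1 and Pkm, passed in neither sex. Aldoa, the aldolase of muscle, differed by -0.25 ± 0.10 in males and -0.10 ± 0.10 in females. Pgk1, the first ATP-yielding kinase of glycolysis, differed by 0.24 ± 0.14 in males and by 0.30 ± 0.14 in females (SE, adjusted p = 0.0994, or 0.0205 without female sham 3). Tpi1, Gapdh and Pkm differed by -0.23, -0.12 and -0.02 in males and by 0.04, 0.05 and 0.08 in females. Gapdh, often used as a loading control, was 12.80 to 12.99 in male MI hearts and 12.87 to 13.38 in male sham hearts, the highest being male sham 3 in position F. Under scaling by the 75th percentile, Aldoa, Tpi1 and Gapdh counted as lower in males, at -0.58, -0.50 and -0.43 (adjusted p = 0.00203, 0.0244 and 0.032). A second, dim probe of Pkm was detected on 7 of the 20 arrays, 0 of them female sham arrays, and gives no sound level to set against the first.

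Lactate dehydrogenase interconverts pyruvate and lactate and is built from Ldha, the muscle-type subunit, and Ldhb, the heart-type subunit. Ldhb was 5.59, 6.02, 5.90, 5.61 and 5.29 in female MI hearts and 6.14, 6.79, 6.15, 6.20 and 6.71 in female sham hearts. In males it was 5.85, 5.82, 5.93, 6.09 and 6.44 after MI and 6.50, 6.89, 6.66, 6.45 and 6.43 after sham surgery. The female groups were separate, and in males only male MI 5 reached the sham range. Ldhb fell by 0.72 ± 0.16 in females (SE, adjusted p = 0.00209) and by 0.56 ± 0.16 in males (adjusted p = 0.0208), the male call ending without male MI 1 or 2 or male sham 2 (adjusted p from 0.0549 to 0.0658). The Ldhb probe was dim, with raw intensities of 56.1 to 128.6 against array medians of 31.4 to 39.2. The size of its fall therefore depends on the offset: with an offset of 50 the female difference was -0.47 (adjusted p = 0.00329). Ldha differed by 0.23 ± 0.11 in females (adjusted p = 0.114, or 0.0241 without female sham 2) and 0.22 ± 0.11 in males (adjusted p = 0.166). The lactate transporters Slc16a1 and Slc16a3 were not measured.

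In the pentose phosphate pathway both measured enzymes of the list rose in females (100%, against 16.5% of all tested genes) and neither passed in males. They belong to the non-oxidative branch, which exchanges carbon between sugar phosphates. Their direction was not that of the whole pathway: Rpia and Rpe, from the further list below, fell by 0.48 and 0.61 in females (limma adjusted p = 0.00478 and 3.28e-04). Tkt, transketolase, was 8.50, 8.52, 8.43, 8.81 and 8.31 in female MI hearts and 7.85, 8.11, 7.43, 8.26 and 7.68 in female sham hearts. The female groups did not overlap, and Tkt rose by 0.65 ± 0.16 (SE, fold 1.57, adjusted p = 0.00355). In males Tkt was 7.92, 7.80, 8.50, 8.53 and 8.15 after MI and 7.83, 7.82, 7.95, 8.02 and 7.70 after sham surgery, a difference of 0.32 ± 0.16 (adjusted p = 0.173). Male MI 3 and 4 were high and the other male MI arrays near the sham values. Taldo1, transaldolase, rose in females by 0.40 ± 0.13 (adjusted p = 0.0264), a call that ended without female MI 1, 4 or 5 or female sham 3 or 4 (adjusted p up to 0.0738), under scaling by the 75th percentile (0.153) and with only the female groups in the fit (0.0794). It differed by 0.06 ± 0.13 in males. The oxidative enzymes G6pdx and Pgd were not measured.

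Of the 5 measured glycogen genes, 2 fell in males (40%, against 8.59% of all tested genes) and 3 fell in females (60%, against 16.3%). Gys1 and Pygb had no settled direction in males, where their differences ran from -0.18 to 0.11 and from -0.25 to 0.03 over the alternatives and were 0.04 and 0.01 on chip 1. A second probe of Gys1 was at 0.04 in males. Pygm, the muscle glycogen phosphorylase, was 8.45, 8.35, 8.89, 8.79 and 8.49 in female MI hearts and 9.18, 9.42, 9.98, 9.17 and 9.46 in female sham hearts. Male hearts had 8.75, 8.71, 8.71, 9.0 and 8.80 after MI and 9.04, 9.34, 9.67, 9.09 and 9.37 after sham surgery. Both pairs of groups were separate. Pygm fell by 0.85 ± 0.15 in females (SE, adjusted p = 2.35e-04) and by 0.51 ± 0.15 in males (adjusted p = 0.023). The male call ended without male MI 2 or 3 or male sham 3 (adjusted p from 0.0507 to 0.0702), and without the position F arrays (adjusted p = 0.056).

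Ugp2, which makes the UDP-glucose used for glycogen synthesis, was 9.70 to 10.02 in male MI hearts and 10.14 to 10.58 in male sham hearts, and 9.27 to 10.02 in female MI hearts and 9.91 to 10.41 in female sham hearts. It fell by 0.38 ± 0.13 in males (SE, adjusted p = 0.0487) and 0.42 ± 0.13 in females (adjusted p = 0.017). The male call stood when any 1 of 4 arrays was left out (female MI 3 or 5, female sham 2 or 4) and ended for each of the other 16 (adjusted p from 0.0507 to 0.133), and the female call ended without female MI 5 (adjusted p = 0.0556). With chip as a block neither sex passed (adjusted p = 0.0514 in males and 0.0602 in females). The male call also ended with the replicate number as a block (0.0512), and the female call with only the female groups in the fit (0.0613). Without the position F arrays neither sex passed (adjusted p = 0.0902 in males and 0.065 in females). Pgm1, phosphoglucomutase, fell in females by 0.25 ± 0.09 (adjusted p = 0.0433), a call that ended without any 1 of 14 arrays, all but male sham 1, 3 and 4, female MI 4 and female sham 3 and 4 (adjusted p up to 0.105). It also ended with chip as a block (-0.17, adjusted p = 0.259), with the replicate number as a block (0.0693), with only the female groups in the fit (0.106) and under scaling by the 75th percentile (0.0891). In males Pgm1 differed by -0.22 ± 0.09 and did not pass (adjusted p = 0.108, or 0.0148 under scaling by the 75th percentile). A second probe of Pgm1 was at -0.26 in females (limma adjusted p = 0.172 over all kept probes) and -0.14 in males. Gys1, the muscle glycogen synthase, and Pygb, the brain-type phosphorylase, passed in neither sex, with Gys1 at -0.28 in females and -0.06 in males and Pygb at -0.26 in females and -0.01 in males. Without female MI 3, Pygb would have counted as lower in females (adjusted p = 0.0245).

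Within the chips that held both groups of a sex, all 7 genes called in males and all 16 called in females kept their direction on both chips. On chips 3 and 4 the female differences were 0.78 and 0.96 for Slc2a1, 1.78 and 1.72 for Hk3, -1.24 and -0.85 for Pfkfb2 and -0.96 and -0.96 for Pygm. Other called genes differed in size between chips 3 and 4: Ldhb had -0.39 and -1.42, Ugp2 -0.22 and -0.89, Eno3 -0.15 and -0.68, and Pfkp 1.12 and 0.38. On chips 1 and 2 the male differences were 0.69 and 0.33 for Slc2a1, 0.96 and 1.12 for Hk3 and -0.63 and -0.33 for Pygm, but -0.82 and -0.17 for Ldhb and -0.61 and -0.21 for Pgam2. In a fit to chip 3 alone, with 6 arrays, 3 of the 16 female calls stood (Hk3, Pfkp and Pfkfb2), and in a fit to chip 1 alone 5 of the 7 male calls stood. Of all tested genes 7.32% were called on chip 3 alone and 16.7% on chip 1 alone. With chip as a block, 11 of the 16 female calls and 5 of the 7 male calls stood. Counted over arrays, 1 of the 26 genes (Hk3) had every male MI array above every male sham array, as did 9.71% of all tested genes, and 5 genes (Pgam2, Eno3, Pygm, Pgm1 and Ugp2) had every male MI array below, as did 8.42%. In females 3 genes (Slc2a1, Pfkp and Tkt) were fully above, against 8.11% of all tested genes, and 3 (Ldhb, Pfkfb2 and Pygm) fully below, against 6.83%.

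The called genes of the isoform classes differed in direction. The measured muscle or heart isoforms were Slc2a4, Pfkfb2, Pygm, Ldhb, Pfkm, Eno3, Pgam2, Gys1 and Aldoa. The measured other isoforms were Hk3, Pfkp, Slc2a1, Pfkfb4, Pgam1, Ldha, Pfkl, Hk1 and Pygb. Ldhb was thus classed as the heart form, and Ldha, though named the muscle-type subunit, was placed among the other isoforms. Of 10 listed muscle or heart isoforms 9 were measured, all with a negative difference in both sexes at the probe used. Gys1 in males turned positive on chip 1, without the position F arrays and without male MI 3, male sham 3 or male sham 5. Dimmer probes of Pfkm and Gys1 were at 0.03 and 0.04 in males. Of the 9 isoforms 3 fell in males (33.3%) and 7 in females (77.8%), against backgrounds of 8.59% and 16.3%. None rose in limma, and 0 had an unadjusted p under 0.05 with a higher level. Their median difference was -0.30 in males and -0.41 in females. Of 12 listed other isoforms 9 were measured: 3 of 9 rose in males (33.3%, against 9.77%) and 5 of 9 in females (55.6%, against 16.5%). Only 7 of 9 had a positive difference in males and 6 of 9 in females. None fell in limma, and 0 had an unadjusted p under 0.05 with a lower level. Alternatives differed: without female MI 3, 1 was called lower in females (Pygb). Under scaling by the 75th percentile 1 had an unadjusted p under 0.05 with a lower level in each sex. The median of the other isoforms was 0.22 in males and 0.55 in females. Under scaling by the 75th percentile the male median was 0.00884, with 7 muscle isoforms called lower. The muscle count in males was 1 without male MI 2, and the other-isoform count in females was 3 without female MI 2, female MI 4, female sham 1 or female sham 5. The classes were drawn up with earlier results of these data known, so the counts describe them and test nothing.

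A shift in log2 level common to both isoforms of a pair cancels in their ratio on the same array. The log2 ratio of the other isoform to the muscle or heart isoform was therefore compared between MI and sham for the 7 of 13 listed pairs with both genes measured. The exact two-sided permutation test on 5 against 5 arrays cannot give a p below 0.00794, and p-values were adjusted over 14 tests. Of those 14 tests, 10 passed, all with a higher ratio after MI, 4 in males and 6 in females. The pairs, like the classes, were drawn up with earlier results of these data known, so these p-values describe the chosen pairs and are no independent evidence of a direction. The ratios still depended on the scaling: under scaling by the 75th percentile 6 tests passed in males and 6 in females, with Pgam1/Pgam2 in males at 0.66 (exact adjusted p = 0.0317), Pfkfb4/Pfkfb2 in males at 0.70 (0.037) and Pfkl/Pfkm in females at 0.37 (0.037) added and Pygb/Pygm in females lost (0.0598). Ratios below are relative to the mean of the sham arrays of the same sex.

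For Slc2a1/Slc2a4 the log2 ratio was 1.57, 2.10, 0.94, 1.96 and 2.32 in female MI hearts and -0.02, -0.36, -0.83, 0.93 and 0.27 in female sham hearts. In males it was 0.51, 0.66, 1.69, 0.57 and 0.84 after MI and 0.42, -0.02, -0.43, 0.31 and -0.29 after sham surgery. No MI array fell into the sham range of its sex, though female MI 3 and female sham 4 were nearly level. The difference was 1.78 ± 0.38 in females and 0.86 ± 0.27 in males (SE, exact adjusted p = 0.0159 in each). Within chips it was 1.59 and 2.06 on the 2 chips that held both female groups, and 0.97 and 0.69 on the 2 that held both male groups.

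For Pfkp/Pfkm the ratio was 1.60, 1.49, 0.48, 1.96 and 1.26 in female MI hearts and -0.29, 0.21, -0.03, -0.05 and 0.18 in female sham hearts. Male hearts gave 1.10, 1.39, 0.55, 0.49 and 0.58 after MI and -0.36, -0.02, 0.30, -0.23 and 0.32 after sham surgery. Both sexes were fully separated, by 1.35 ± 0.26 in females and 0.82 ± 0.23 in males (SE, exact adjusted p = 0.0159 in each). For Ldha/Ldhb it was 0.97, 0.79, 0.73, 1.06 and 1.17 in female MI hearts and 0.15, -0.06, 0.36, -0.04 and -0.39 in female sham hearts. In males it was 1.04, 0.95, 1.01, 0.64 and 0.23 after MI and 0.07, -0.26, 0.09, -0.02 and 0.10 after sham surgery. Again no arrays overlapped, with differences of 0.94 ± 0.15 in females and 0.78 ± 0.17 in males (SE, exact adjusted p = 0.0159 in each). Ldhb was far dimmer than Ldha, with mean log2 levels over all arrays of 6.17 and 12.73. Before the sham mean was subtracted, the mean log2 ratio was 7.17 in female MI and 6.22 in female sham hearts. In males it was 6.80 after MI and 6.03 after sham surgery. The Ldhb part of these differences depends in size on the offset, as given above. The male Ldha/Ldhb difference was 1.03 on 1 chip and 0.39 on the other.

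The other pairs were less uniform. Pfkfb4/Pfkfb2 differed by 1.64 ± 0.40 in females (SE, exact adjusted p = 0.0159), where the MI arrays ran from 0.55 to 2.80 and the sham arrays from -0.51 to 0.54, and by 0.56 ± 0.27 in males (exact adjusted p = 0.103). Pgam1/Pgam2 differed by 0.86 ± 0.23 in females (exact adjusted p = 0.0247, or 0.0667 without the position F arrays) and 0.45 ± 0.19 in males (exact adjusted p = 0.0707, or 0.037 without male MI 3, 0.0404 without male sham 5 and 0.0247 with an offset of 50). Pygb/Pygm differed by 0.59 ± 0.22 in females (exact adjusted p = 0.0444) and 0.49 ± 0.18 in males (exact adjusted p = 0.0247). The female Pygb/Pygm call ended without female MI 1, 2, 3 or 5 or female sham 2, 3, 4 or 5 (exact adjusted p from 0.0556 to 0.0808). It also ended with an offset of 50 (exact adjusted p = 0.0505), with no background correction (0.0556) and on the authors' deposited log2 values (0.0556). Pfkl/Pfkm passed in neither sex, at 0.36 ± 0.16 in females (exact adjusted p = 0.0741, or 0.0222 without female sham 2 and 0.04 without the position F arrays) and 0.02 ± 0.16 in males (exact adjusted p = 0.921).

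**Figure D3:**
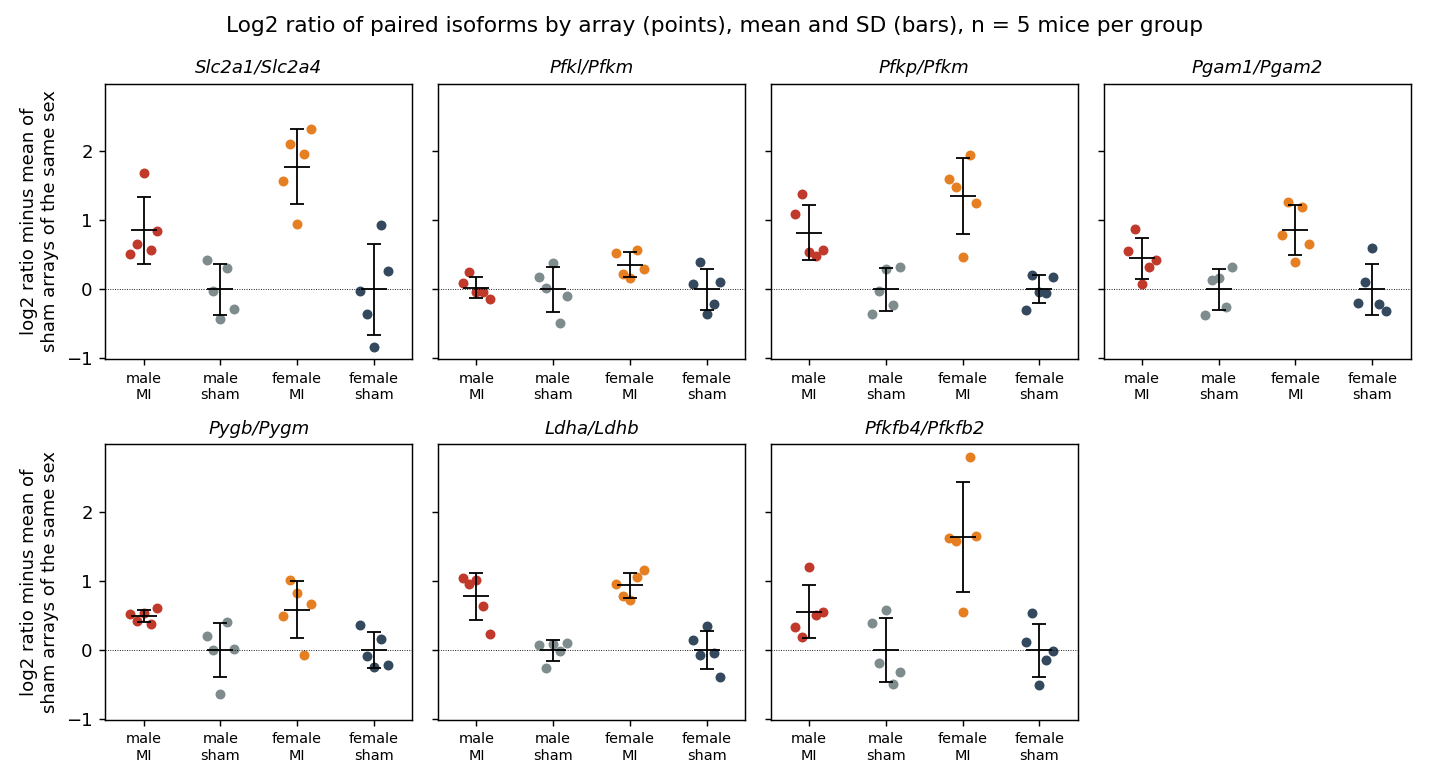
Log2 ratio of the other isoform to the muscle or heart isoform on each array (points), minus the mean of the sham arrays of the same sex, with group mean and SD (bars, n = 5). For Slc2a1/Slc2a4, Pfkp/Pfkm and Ldha/Ldhb all MI arrays lie above all sham arrays of the same sex, while Pfkl/Pfkm overlaps in both sexes.

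These ratios stand beside macrophage marker sums that were fully separate between MI and sham arrays in both sexes and cardiomyocyte sums that overlapped. The part of either in the ratios was not tested.

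Promoters are shown for 4 of the genes that changed in both sexes, 2 that rose (Slc2a1 and Hk3) and 2 muscle isoforms that fell (Pgam2 and Pygm). Pfkp, Ldhb and Ugp2 were also called in both sexes and are not shown, so the 4 need not be typical. Each is 300 bases, from 250 before to 50 after the start, on the strand of the gene, from RefSeq for GRCm38.p6. The capitals mark ACGTG, the core bound by hypoxia-inducible factors, on either strand (CACGT on the other), and in Pgam2 the binding motif of MEF2, a muscle transcription factor.
Slc2a1: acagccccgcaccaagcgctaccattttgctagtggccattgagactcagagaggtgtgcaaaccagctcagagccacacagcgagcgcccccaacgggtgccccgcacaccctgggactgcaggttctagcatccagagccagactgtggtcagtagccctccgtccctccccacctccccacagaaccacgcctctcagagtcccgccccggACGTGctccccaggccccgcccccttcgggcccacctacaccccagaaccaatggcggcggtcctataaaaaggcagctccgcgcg
Hk3: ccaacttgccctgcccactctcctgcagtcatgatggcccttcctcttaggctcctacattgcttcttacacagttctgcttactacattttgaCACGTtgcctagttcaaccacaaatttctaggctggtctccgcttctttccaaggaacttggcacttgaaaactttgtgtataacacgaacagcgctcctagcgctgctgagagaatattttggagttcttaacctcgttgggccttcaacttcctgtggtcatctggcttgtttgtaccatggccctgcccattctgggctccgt
Pgam2: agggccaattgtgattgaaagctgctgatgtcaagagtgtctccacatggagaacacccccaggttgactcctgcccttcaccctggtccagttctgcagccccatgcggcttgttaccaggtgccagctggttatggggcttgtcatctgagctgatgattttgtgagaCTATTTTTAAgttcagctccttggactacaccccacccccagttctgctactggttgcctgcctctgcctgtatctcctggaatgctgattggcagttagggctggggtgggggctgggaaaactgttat
Pygm: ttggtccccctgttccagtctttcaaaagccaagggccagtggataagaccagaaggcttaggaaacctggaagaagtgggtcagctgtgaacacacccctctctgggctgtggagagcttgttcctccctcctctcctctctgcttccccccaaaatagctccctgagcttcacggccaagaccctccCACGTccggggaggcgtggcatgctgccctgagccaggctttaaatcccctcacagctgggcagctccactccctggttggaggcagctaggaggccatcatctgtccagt
The Slc2a1 window is chr4:119108495-119108794 on the plus strand, with its match starting 36 bases before the start, and the Hk3 window is chr13:55021336-55021635 on the minus strand, with its match 156 bases before. The Pgam2 window, chr11:5803747-5804046 on the minus strand, had 0 ACGTG matches and 1 MEF2 match 80 bases before the start. The Pygm window, chr19:6384158-6384457 on the plus strand, had 1 ACGTG match 61 bases before. The letters occurred both in genes that rose and in 1 that fell. Promoters were found for 25 of the 26 measured genes, with 36 windows since some genes have several starts, and 18 of the 36 (50%) held ACGTG, against 19.6% of 32851 promoters in the table. MEF2 matches were in 1 of the 36 and in 3.19% of all. ACGTG also lies within the CACGTG E-box, and a match describes letters only.

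The responses of females and males to MI were compared directly. In the limma interaction test 0 of 26 genes passed, as did 0% of all tested genes. At an unadjusted p under 0.05 there was 1, Pfkfb2, with a difference between female and male responses of -0.77 (unadjusted p = 0.00718, adjusted p = 0.554), among 1091 of 12921 genes. Genes called in females and not in males, such as Slc2a4 and Tkt, are therefore not shown to respond differently. Between females and males after MI 0 of the 26 genes passed, and 0.139% of all genes did. An unadjusted p under 0.05 was found for 7 of the 26, and for 14.9% of all genes. Without female MI 3 the brain-type phosphorylase Pygb passed, with a difference of -0.49 between females and males (adjusted p = 0.0383). After sham surgery 0 of 26 passed, against 0.108% of all genes, and 1 of the 26 had an unadjusted p under 0.05, against 12.7% of all genes. Chip 2 held 2 sham arrays of each sex, and there the female minus male differences of the 26 genes ran from -0.37 to 0.30, with no test. No chip held MI arrays of both sexes, so after MI sex could be separated from chip only through the sham arrays of chip 2. With chip as a block 0 of the 26 genes passed in either sex comparison.

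The wider pathway was described with a list of 49 further glycolysis, glycogen and pentose phosphate genes, of which 33 were measured. In males 1 rose (3.03%, against 9.77% of all tested genes) and 2 fell (6.06%, against 8.59%). In females 4 rose (12.1%, against 16.5%) and 13 fell (39.4%, against 16.3%). All these shares but the last lay below those of all genes. Their median difference was -0.07 in males and -0.37 in females. Pygl, the liver-type glycogen phosphorylase, rose by 0.77 ± 0.15 in females (SE, adjusted p = 4.27e-04) and 0.65 ± 0.15 in males (adjusted p = 0.00432), while the muscle form Pygm fell. Slc2a3, the transporter GLUT3, and Stbd1, a glycogen-binding protein, rose in females by 0.54 and 0.51. Fbp2, the muscle fructose bisphosphatase, fell by 0.73 in females and 0.50 in males. Rpia, ribose phosphate isomerase, fell by 0.48 in females (adjusted p = 0.00478) and 0.55 in males (adjusted p = 0.00362). Rpe, its partner epimerase in the pentose phosphate pathway, fell by 0.61 in females and differed by -0.06 in males (adjusted p = 0.762). Phkg1, the muscle catalytic subunit of the kinase that activates glycogen phosphorylase, fell by 1.04 ± 0.22 in females (adjusted p = 0.00111).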

How the data were processed

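RNA from the left ventricle of 20 mice was measured on Illumina arrays on 4 chips. Per the file headers, the authors deposited a bead intensity and a detection p-value for each of 45281 probes, on a linear scale without normalisation, as the values show. They also deposited log2 values, used here as an alternative. Scanner software is not given in the sources used here.

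From the intensities, limma 3.58.1 in R 4.3.3 (neqc) corrected the background, added an offset of 16, quantile normalised and took log2. Probes with a detection p-value under 0.01 on at least 5 arrays were kept (18683), and the brightest probe per symbol was tested, leaving 12921 genes and unnamed probes. Symbols came from the platform annotation, where 34885 probes had 1 symbol, 18 several and 10378 were not listed. One linear model held a mean for each of the 4 groups, which left 16 residual degrees of freedom. P-values were adjusted by Benjamini-Hochberg over all 12921. Isoform ratios were tested by exact permutation within sex. Where a probe was detected on no array of a group, the difference is given as a lower bound against the lowest detected signal of each array. The number of arrays limits the precision. The model and the permutation test were tested on simulated data.

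Chip 1 held 3 male MI and 3 male sham arrays, chip 2 held 2 male MI, 2 male sham and 2 female sham arrays, chip 3 held 4 female MI and 2 female sham arrays, and chip 4 held 1 array of each female group. Every measured gene of the list was described, and of further genes up to 3 called genes per list, sex and direction with the smallest adjusted p. The members and all lists were chosen with earlier results of these data known. Alternatives changed scaling, background, offset, filter, probe choice, chip, position, replicate block, weights and arrays. The limma p-values weigh a group difference against the spread between mice within groups, pooled over the 4 groups and moderated across genes. The permutation p-values rank a difference among all divisions of the same arrays into groups.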

Additional observations from a re-analysis of the deposited data

Results flagged for a closer look

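In 7 of 104 groups of 5 arrays, 1 for each measured gene and group, the highest or lowest array lay further from its nearest neighbour than 0.71 of the group's range. Chance flags about 1 in 20 groups. Gapdh did so in 3 groups: female MI 5 was at 12.70 with the others between 12.96 and 13.06, male sham 3 was at 13.38 with the others between 12.87 and 12.93, and female sham 2 was at 13.26 with the others between 12.78 and 12.84. Pgm1 on male sham 3 was 12.94, against 12.53 to 12.64 on the other male sham arrays. Male sham 3 and female sham 2 are position F arrays. Female sham 4 was low for Pfkm, at 12.72 with the others between 12.84 and 12.88, and for Eno3, at 12.65 with the others between 13.06 and 13.19. Female MI 5 was low for Pkm, at 11.67 with the others between 12.15 and 12.25.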

How the results depend on the processing

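No call changed sign under any alternative run. Genes called lower in males numbered 4, against 11 with 75th percentile scaling, 8 with array weights, 2 without the position F arrays and 1 to 4 when each array was left out (1 without male MI 2; 2 without male MI 1, male MI 3, male sham 2 or male sham 3). Genes called higher in females numbered 7, against 2 within chip 3 alone and 4 to 8 when each array was left out (4 without female MI 4). Genes called lower in females numbered 9, against 5 with chip as a block, 5 with only the female groups in the fit, 1 within chip 3 alone and 5 to 9 when each array was left out (5 without female MI 5). Chip 3 alone has 4 female MI and 2 female sham arrays. Muscle isoforms called lower numbered 3 in males (7 with 75th percentile scaling, 6 with array weights, 1 to 4 when each array was left out) and 7 in females (1 within chip 3, 5 to 7 when each was left out). Other isoforms called higher in females numbered 5 (3 without a filter on dim probes, 2 within chip 3, 3 to 6 when each was left out). Females against males after MI had 0 called genes of the list, 7 with array weights and 0 to 1 when each array was left out. With array weights 1981 of all 12921 genes were called there, against 18. The share of all genes called moved as well. In males it was 18.4%, against 23.6% with 75th percentile scaling, 32.1% with array weights and 19.8% without the position F arrays. In females it was 32.7%, against 26.1% with chip as a block, 24.7% with only the female groups, 13.2% without a filter on dim probes and 7.32% within chip 3. For these changes the cause was not tested.

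Pairing was checked through the labels' replicate numbers: deviations of same-numbered MI and sham arrays correlated between -0.325 and 0.139 in males and between -0.0556 and 0.319 in females, and an array correlated best with its own number in 2 of 10 and 3 of 10 cases. The samples share only a number. With the number as a replicate block, 2 of the 26 genes rose and 3 fell in males, and 6 rose and 8 fell in females. In that fit 16.8% of all tested genes were called in either direction in males and 31.9% in females.

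Over all genes, the male comparison called 2373, with 4150 under array weights and 1711 to 2711 when each array was left out. The female comparison called 4231, with 946 within chip 3 and 3501 to 4634 when each array was left out. The interaction called 0, and 31 with array weights. Females against males after sham surgery called 14, with 6 among genes detected on all arrays, 7 with chip as a block, 39 with a term for position F, 32 with weights, 7 with only those groups and 9 to 45 when each array was left out. After MI the 18 calls became 9, 4 and 1981 among genes detected on all arrays, with chip as a block and with weights, and 11 to 635 when each array was left out. Scaling by the 75th percentile moved the median of all genes to -0.127 in males and -0.0827 in females.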

Other observations

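Among 21 listed regulators of glucose metabolism 20 were measured. In males 1 rose (5%, against 9.77% of all tested genes) and 2 fell (10%, against 8.59%), and in females 10 fell (50%, against 16.3%). Mlxipl, the glucose-sensing transcription factor ChREBP, fell by 0.88 ± 0.14 in females (SE, adjusted p = 8.48e-05) and by 0.91 ± 0.14 in males (adjusted p = 1.91e-04). Egln1, an oxygen-sensing prolyl hydroxylase, fell by 1.05 and Insr, the insulin receptor, fell by 0.66 in females. Hif1a, a hypoxia-inducible transcription factor, rose in males by 1.08 ± 0.30 (adjusted p = 0.0175) and differed by 0.42 ± 0.30 in females (adjusted p = 0.306). Prkag1, a subunit of the energy sensor AMPK, fell by 0.39 in females (adjusted p = 0.00509) and 0.35 in males (adjusted p = 0.0204).

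Of 13 listed hypoxia response genes outside glycolysis 12 were measured. Car9, a carbonic anhydrase, was detected on all MI arrays and on 0 sham arrays of either sex. Against the lowest detected signal it was at least 1.52-fold higher in females and at least 1.08-fold higher in males. Car9 passed the detection filter through MI arrays alone and its sham signals were undetected, so its limma p-values give no support. It was the 1 of 12 genes called higher in each sex (8.33%, against 9.77% of all tested genes in males and 16.5% in females). Its mean log2 level was 5.42 in female MI hearts and 4.35 in female sham hearts, and 5.04 in male MI hearts and 4.404 in male sham hearts. The other calls were lower levels, 1 of 12 genes in males (8.33%, against 8.59% of all tested genes) and 2 in females (16.7%, against 16.3%). P4ha1, a collagen prolyl hydroxylase, fell by 0.65 in males, and Higd1a and Mxi1 fell by 0.60 and 0.82 in females. Of 4 measured skeletal muscle markers 3 rose in females (75%, against 16.5% of all tested genes). Among them was Tnnt3, detected on 4 female MI arrays and 0 female sham arrays and at least 1.26-fold higher. Tnnt3 passed the detection filter through MI arrays alone, so its limma p-value gives no support. Myh1, Myh4 and Actn3 were not detected.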
